A study of Homo sapiens with 4 samples.

Results

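The BCL2 family genes described here are 10 genes that keep cells alive or commit them to death at the mitochondrion. They were taken by name from the 59050 genes of the count file, and the direct p53 targets BAX, BBC3 and PMAIP1 were left aside. The pro-survival genes are BCL2, BCL2L1, BCL2L2 and MCL1, the pore-forming gene is BAK1, and the BH3-only genes are BCL2L11, BID, BAD, BMF and BIK. All 10 were in the file and passed the filter on low counts. RNA was sequenced from RCC4, an established human clear cell renal carcinoma (ccRCC) line that lacks functional VHL. In shPML cells a lentiviral, doxycycline-inducible hairpin (shPML#1) was directed against PML, and shCtrl cells carried a scrambled hairpin in the same system. All cells, controls included, received doxycycline at 100 ng/ml for 96 h. There were 2 shPML and 2 shCtrl libraries, 1 of each from each of 2 experiments with independent infections, here called replicates 1 and 2. The sequencing used a single hairpin and a single cell line, which the methods describe as not authenticated. Other experiments of the paper also used another hairpin against PML and further ccRCC lines.

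Proteins of the BCL2 family decide whether the outer mitochondrial membrane is opened. Pro-survival proteins hold the pore formers BAX and BAK1 and the BH3-only proteins in inactive complexes, and BH3-only proteins, which sense different kinds of stress, free or activate the pore formers. Once the membrane is open, cytochrome c escapes and caspases are activated. In kidney carcinoma cells BCL-XL, the product of BCL2L1, and MCL1 are well known guardians, and senescent cells are known to lean on the same proteins.

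The libraries held from 27781193 (shPML replicate 2) to 69870617 (shPML replicate 1) counted reads. PML, the targeted gene on chromosome 15, was lower in shPML in both experiments, with 54.9 against 93.1 CPM (counts divided by the library size after TMM scaling) in replicate 1 and 87.6 against 136 CPM in replicate 2. Its log2 fold change was -0.69 with an adjusted p of 0.32 in edgeR, and -0.70 with an adjusted p of 4.2e-07 when the experiment was a block. The submitters later swapped the labels of a pair of samples back, and the labels used here are those after that change. All 7 markers of renal epithelial carcinoma examined were expressed in every library, with a summed level from 4455 to 7261 CPM. Most of this sum was VIM, at 3227 CPM in shCtrl replicate 1 (the lowest sum) and 5875 CPM in shPML replicate 2 (the highest). PAX8 was at 307 and 427 CPM in the same libraries. The summed level of 5 leukocyte markers was at most 0.181 CPM in 3 of the libraries and 141 CPM in shPML replicate 2, where PTPRC, CD14 and LYZ had 346, 1177 and 2349 counts, whereas the T cell gene CD3E had 0 counts in all libraries. Of 4 endothelial markers, PECAM1 had 113 counts in shPML replicate 2 and at most 3 in the others, while CDH5, VWF and TEK stayed at 14 counts or fewer everywhere. The part of these transcripts in the differences below was not tested, and for each of the 10 members, and each other gene called with the block, the levels or the ratio of replicate 1, where they are near 0 in both libraries, are given.

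To ask whether PML silencing altered the BCL2 family, each gene was compared between shPML and shCtrl in a fit across 16516 genes with the quasi-likelihood test of edgeR, and called when it passed both an adjusted p of 0.05 and a log2 fold change of 0.5 in either direction. BMF was the member with the largest difference, about 3-fold higher in shPML. BCL2L2, MCL1 and BCL2L11 lay higher and BAK1, BCL2 and BID lower in shPML, each by less than 1.5-fold, and BCL2L1, BAD and BIK had overlapping groups. In the fit without a block 0 of the 10 members were called, where 0.0787% of all genes were called higher and 0.333% lower. The smallest adjusted p of any gene in that edgeR fit was 0.0484, just under the threshold. With RLE normalization in place of TMM, 0 genes were called. An unadjusted p under 0.05 was found for 3 members, BMF, BAK1 and BCL2, against 17.9% of all genes. DESeq2 without a block called 1 member, BMF, against 8.93% of all genes.

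With the experiment as a block, edgeR called BMF and BCL2L2 higher, against 8.57% of all genes, and BAK1 lower, against 10.5% of all genes. DESeq2 with the block called the same 3 members, against 15.1% of all genes. Without the fold change threshold, 7 of the 10 members had an adjusted p under 0.05 in the blocked edgeR fit, compared with 30.2% of all genes, and 5 of the 7 (all but BCL2L11 and BID) were also under 0.05 in DESeq2 with the block. Both shPML libraries lay above both shCtrl libraries in 4 members, where 23.1% of all genes did so, and below them in 3 members, where 24.9% did so. With 10 genes each count rests on few members, and no difference of these shares from the background was tested. The median log2 fold change of the members was 0.02 without the block and 0.07 with it, compared with 0.01 and 0.00 over all genes tested. It was 0.22 in replicate 1 and 0.03 in replicate 2. When 1 library was left out, in fits with no block, it ran from -0.14 (without shCtrl replicate 1) to 0.29 (without shCtrl replicate 2). For a single gene with 2 libraries a group, the smallest two-sided p of an exact permutation test is 0.333.

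**Figure D1:**
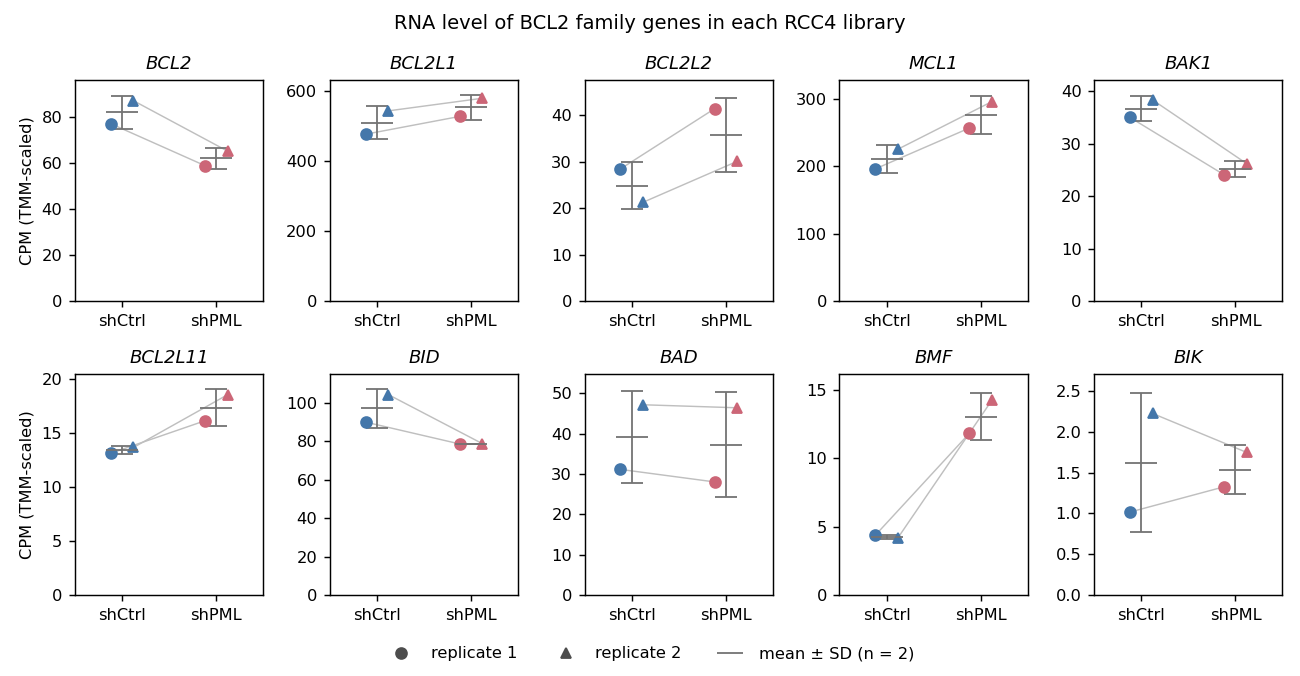
RNA level of the 10 BCL2 family genes in each library, in CPM after TMM scaling (vertical axes, starting at 0), for shCtrl and shPML (horizontal axes). Circles are replicate 1 and triangles replicate 2, thin lines join libraries of one replicate, and bars give mean ± SD (n = 2); the lines of BMF rise from about 4.3 to 13.0 CPM on average and those of BAK1 fall from 36.7 to 25.2 CPM.

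The BH3-only gene BMF (chromosome 15, 40087890 to 40108892, minus strand, GRCh38) encodes a protein that is held on the cytoskeleton through a dynein light chain and is released when cells detach or their actin is disturbed. Its level was 4.36 CPM in shCtrl replicate 1, 4.17 CPM in shCtrl replicate 2, 11.8 CPM in shPML replicate 1 and 14.2 CPM in shPML replicate 2. The shCtrl libraries were nearly equal, and both shPML libraries stood far above them. These levels rested on 236, 150, 846 and 391 counts in the same order. The log2 fold change was 1.61 (standard error 0.22, 95% interval 1.05 to 2.17), a 3.05-fold difference with an adjusted p of 0.0616 in edgeR without the block. With the block it was 1.597 (standard error 0.20, adjusted p = 1.0e-09 in edgeR), and it was called. Within the experiments the log2 ratios were 1.44 (replicate 1) and 1.77 (replicate 2), with intervals for counting error alone of 1.23 to 1.65 and 1.496 to 2.05. In replicate 1 the summed leukocyte markers were at 0.111 CPM in shCtrl and 0.181 CPM in shPML, and their part in the difference was not tested.

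The promoter of BMF is shown because this gene had the largest difference, and that of BAK1 because it was the member called lower. Both are RefSeq sequences of GRCh38.p14, from 250 bases before to 50 bases after an annotated start, written 5′ to 3′ on the strand of the gene, with the word GGGCGG or its reverse complement, the GC box bound by SP1-type factors, in capitals. The BMF stretch is chr15:40108830-40109129 on the minus strand, and the BAK1 stretch is chr6:33580227-33580526 on the minus strand. Each spans the 5′ end of the gene as it was counted.
BMF: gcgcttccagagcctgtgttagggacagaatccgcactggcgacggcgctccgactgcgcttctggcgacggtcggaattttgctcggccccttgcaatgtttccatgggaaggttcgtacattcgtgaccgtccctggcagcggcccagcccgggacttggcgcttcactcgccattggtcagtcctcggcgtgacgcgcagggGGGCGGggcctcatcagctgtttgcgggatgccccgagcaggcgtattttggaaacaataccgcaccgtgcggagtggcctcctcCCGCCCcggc
BAK1: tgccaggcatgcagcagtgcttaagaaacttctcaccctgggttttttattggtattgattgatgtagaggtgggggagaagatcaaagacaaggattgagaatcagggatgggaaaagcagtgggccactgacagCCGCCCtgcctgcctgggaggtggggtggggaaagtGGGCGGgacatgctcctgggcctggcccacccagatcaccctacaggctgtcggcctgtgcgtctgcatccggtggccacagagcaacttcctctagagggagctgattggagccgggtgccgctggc

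Both promoters hold 2 GC boxes, although BMF was higher and BAK1 lower in shPML, and 45.0% of the 35116 promoter entries hold at least 1. The BMF stretch is 65.0% G or C and the BAK1 stretch 58.7%. RefSeq lists a second BMF start, chr15:40106917-40107216, whose 300 bases hold 0 GC boxes. Promoter entries were found for 7 members, 14 entries in all, and 6 of these members had at least 1 GC box in some entry. The 45.0% is a share of entries and not of genes, so it is no background for this count. The FOXO core word GTAAACA was present in the BCL2L11 entry and in no other member's, and 3.42% of all entries hold it. The E-box CACGTG was found only in 2 of the BID entries and the E2F-like word TTTNGCGC only in 1 of the BCL2L1 entries, against 7.26% and 1.79% of all entries. All words were searched on both strands, and a match is a description of these letters only.

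BAK1 (chromosome 6, 33572547 to 33580293) encodes one of the proteins that form the pore of the outer mitochondrial membrane. It was measured at 35.0 and 38.4 CPM in shCtrl replicates 1 and 2 and at 24.1 and 26.2 CPM in shPML replicates 1 and 2. All shPML values lay below all shCtrl values, and the gap between the groups was larger than the spread within either. The log2 fold change was -0.54 (standard error 0.16, 95% interval -0.94 to -0.15, adjusted p = 0.17 in edgeR without the block). With the block it was called lower at -0.54 (standard error 0.12, adjusted p = 0.000364 in edgeR). The 2 experiments gave nearly the same log2 ratio, -0.54 and -0.55. Its exons share 4.11% of their bases with GGNBP1 on the other strand, which had 2 counts or fewer in every library.

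Of the other BH3-only genes, BCL2L11 (chromosome 2, 111120914 to 111168445) encodes BIM, which can bind every pro-survival protein and activate BAX and BAK1. It was at 13.1 and 13.7 CPM in shCtrl and at 16.1 and 18.5 CPM in shPML. The groups did not overlap, but the log2 fold change of 0.37 was short of the fold change threshold in both fits, at an adjusted p of 0.37 in edgeR, of 0.0492 once the block was added, and of 0.20 in DESeq2 with the block. The ratio was 0.30 in replicate 1 and 0.44 in replicate 2. The lncRNA gene MIR4435-2HG on the other strand shares 11.9% of the exon bases of BCL2L11. It had more counts than BCL2L11, 1075 and 738 in shCtrl and 1943 and 581 in shPML, against 711, 492, 1157 and 510. The strand setting of the counting is not given in the sources used here.
BID (chromosome 22, 17734138 to 17774665) links death receptors to the mitochondrion after caspase 8 cuts it. It was at 89.9 and 104 CPM in shCtrl and at 78.6 and 78.7 CPM in shPML. Both shPML libraries were lower, with a log2 fold change of -0.30 in either fit (adjusted p = 0.39 without and 0.0312 with the block in edgeR, and 0.0837 in DESeq2 with the block), which did not reach the fold change threshold. The ratio was -0.19 in replicate 1 and -0.40 in replicate 2, the replicate with leukocyte transcripts.
BAD (chromosome 11, 64269830 to 64284669), a BH3-only protein that growth factor signalling silences by phosphorylation, was at 31.2 and 47.2 CPM in shCtrl and at 28.1 and 46.4 CPM in shPML. Its level followed the experiment and not the condition, as shown by the log2 ratios of -0.15 and -0.02 within replicates 1 and 2. The difference between conditions with the block was -0.09 (95% interval -0.33 to 0.15). Without the block the interval was -0.88 to 0.73 and reached past the fold change threshold in both directions. GPR137 on the other strand shares 7.84% of the exon bases of BAD and had 1878 and 1946 counts in shCtrl and 2671 and 1854 in shPML, more than BAD with 1687, 1699, 2012 and 1277.
BIK (chromosome 22, 43110750 to 43129712), a BH3-only protein of the endoplasmic reticulum, was the least counted member, with 55 and 80 counts in shCtrl and 95 and 48 in shPML. Replicate 1 gave a log2 ratio of 0.38 and replicate 2 one of -0.35, and both counting intervals (-0.11 to 0.89 and -0.90 to 0.19) held 0. No difference of BIK was detected, and the interval with the block, -0.84 to 0.88, leaves changes of almost 2-fold possible in either direction. Without the block the interval was wider, -1.40 to 1.25.

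Among the pro-survival genes, BCL2L2 (chromosome 14, 23306762 to 23311759) encodes BCL-W. In replicate 1 it was at 28.5 CPM in shCtrl and 41.4 CPM in shPML, and in replicate 2 at 21.3 CPM and 30.1 CPM, respectively. The lower shPML library was only slightly above the higher shCtrl library, whereas within each experiment shPML was clearly higher, with log2 ratios of 0.54 and 0.50. The log2 fold change was 0.52 (standard error 0.24, 95% interval -0.08 to 1.13, adjusted p = 0.34 in edgeR) without the block. With the block it was 0.52 (standard error 0.12, 95% interval 0.27 to 0.77, adjusted p = 0.000685 in edgeR) and stood just past the fold change threshold. When 1 library was left out, in fits with no block, the log2 fold change ran from 0.26 (without shPML replicate 1) to 0.76 (without shCtrl replicate 1), with 0.32 without shCtrl replicate 2. The read-through gene BCL2L2-PABPN1 shares 16.3% of the exon bases of BCL2L2 on the same strand. It had 0 counts in both shCtrl libraries and 6 and 7 in shPML, and how reads in the shared exons were assigned is not given in the sources used here. PABPN1, the downstream gene of the read-through, had a log2 fold change of 0.14 with the block (adjusted p = 0.42 in edgeR).
MCL1 (chromosome 1, 150574551 to 150579738) encodes a short-lived guardian that binds BIM and BAK1. It was at 196 and 225 CPM in shCtrl and at 256 and 296 CPM in shPML, and the groups did not overlap. Its log2 fold change of 0.39 had a standard error of 0.10 and an adjusted p of 0.00118 in edgeR with the block (0.31 without it), and did not reach the fold change threshold. The experiments agreed within their counting error, with ratios of 0.39 in both.
BCL2 (chromosome 18, 63123346 to 63320128), the founding member of the family, was at 77.2 and 87.3 CPM in shCtrl and at 59.0 and 65.3 CPM in shPML. Both shPML libraries were lower, by a log2 fold change of -0.40 (adjusted p = 0.27 without and 0.00356 with the block in edgeR), again short of the fold change threshold. The ratios were -0.39 and -0.42 in replicates 1 and 2.
BCL2L1 (chromosome 20, 31664452 to 31722868) gives rise to the pro-survival BCL-XL and, by splicing, to the shorter pro-death BCL-XS, which gene counts cannot separate. It was at 477 and 544 CPM in shCtrl and at 528 and 580 CPM in shPML, with overlapping groups. The log2 fold change with the block was 0.12 (95% interval -0.07 to 0.31, adjusted p = 0.37 in edgeR). Without the block the interval was -0.29 to 0.52 and reached past the fold change threshold. The ratios were 0.15 and 0.09 in replicates 1 and 2. ABALON on the other strand shares 42.2% of the exon bases of BCL2L1 and had from 7 to 250 counts, against at least 15937 for BCL2L1.

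**Figure D2:**
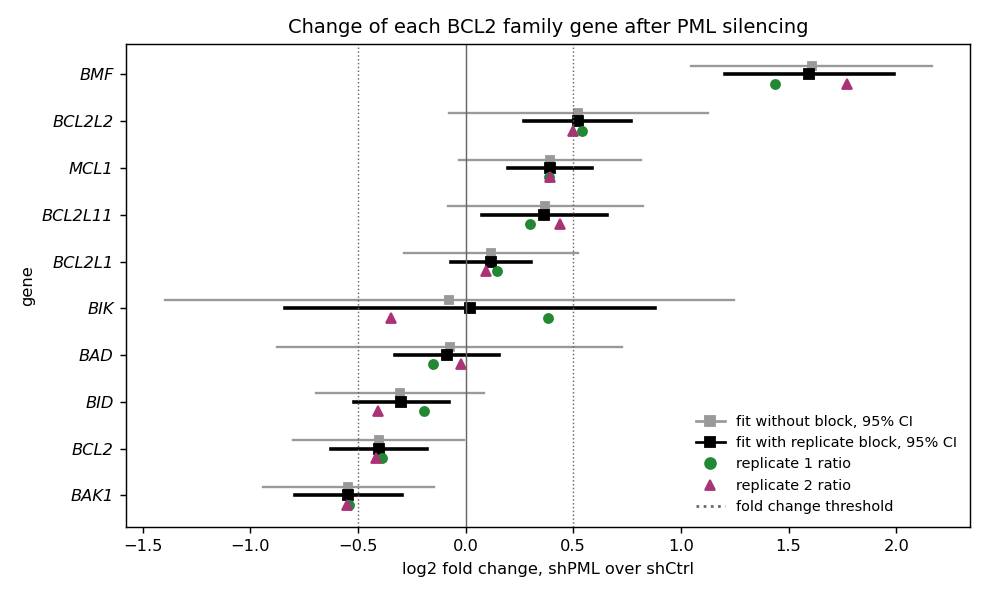
log2 fold change of shPML over shCtrl (horizontal axis) for each member (vertical axis, ordered by the blocked fit). Squares with lines are edgeR estimates with 95% intervals without (grey) and with (black) the replicate block, circles and triangles are the ratios within replicates 1 and 2, and dotted lines mark the fold change threshold of 0.5; BMF stands apart at 1.597, the blocked intervals of 7 members exclude 0, and BIK has opposite signs in the 2 experiments.

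The experiments themselves differed in some members. In the fit with both terms, 1 of the 10 members was called between replicate 2 and replicate 1, against 13.5% of all genes. This was BAD, which was 0.66 higher in replicate 2 on the log2 scale, with a standard error of 0.12 (adjusted p = 1.8e-05 in edgeR). BCL2L2 was lower in replicate 2 by 0.44 on the log2 scale (adjusted p = 0.00585 in edgeR), within the fold change threshold, and its difference between experiments was close in size to that between conditions. For BMF the difference between experiments was 0.11 (adjusted p = 0.73), far smaller than that between conditions. The sign of the log2 ratio was the same in both experiments for 9 of the 10 members, BIK being the exception.

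The members differed far more among themselves than between conditions. On a scale of CPM per kb of exon, BCL2L1 was the most abundant in shCtrl, at 180 ± 16.6 CPM per kb (SD, n = 2), 3.50-fold above MCL1 at 51.5 ± 5.04. BID at 34.6 ± 3.61 and BAD at 29.5 ± 8.54 followed and overlapped each other. BAK1 stood below them at 16.6 ± 1.07, and BCL2 at 7.004 ± 0.604 and BCL2L2 at 6.90 ± 1.41 overlapped. BCL2L11 at 2.20 ± 0.0617 and BIK at 1.70 ± 0.897 overlapped as well, and BMF was the lowest at 0.868 ± 0.0278, 208-fold below BCL2L1. In shPML, BMF moved from rank 10 to rank 9 with 2.65 ± 0.348 CPM per kb, close to BCL2L11 at 2.85 ± 0.280, and BCL2L2 at 9.91 ± 2.22 passed BCL2 at 5.29 ± 0.380. The length used is that of all annotated exons together, so genes with long or many alternative exons, such as BCL2 with 11741 bases, are set low on this scale.

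**Figure D3:**
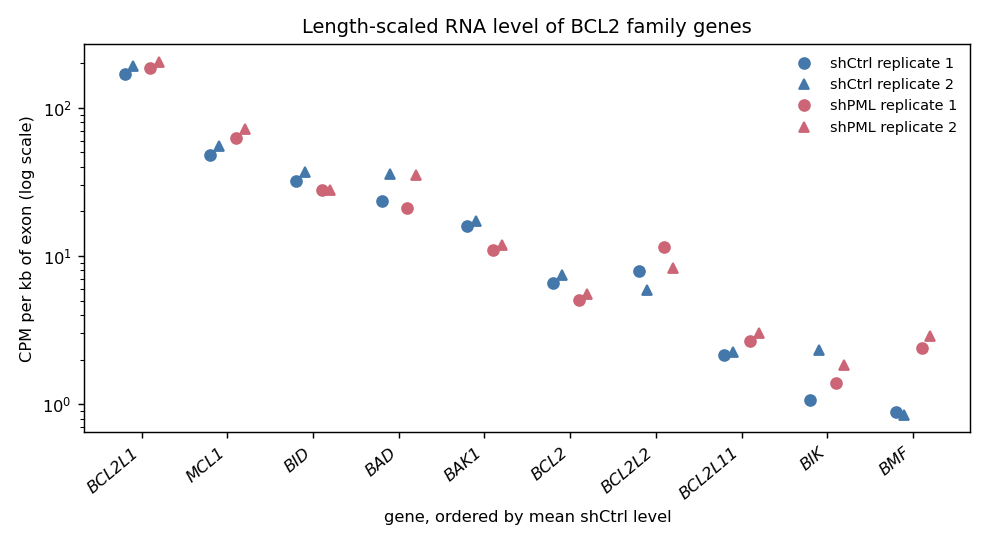
Level of each member in CPM per kb of annotated exon (vertical axis, log scale) in the 4 libraries, with genes ordered by their mean in shCtrl (horizontal axis). Blue marks are shCtrl, red marks shPML, circles replicate 1 and triangles replicate 2; levels run from 0.848 for BMF in shCtrl replicate 2 to 205 for BCL2L1 in shPML replicate 2.

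Summed levels were compared as a description. The 4 pro-survival genes together reached 231 and 261 CPM per kb in shCtrl replicates 1 and 2 and 266 and 291 CPM per kb in shPML, of which BCL2L1 made up between 70.2% and 73.7%. The 6 pro-death members together, BAK1 and the BH3-only genes, came to 75.5 and 95.5 CPM per kb in shCtrl and to 66.5 and 82.7 CPM per kb in shPML, and BID and BAD made up between 73.6% and 76.3% of this. The ratio of the pro-survival to the pro-death sum was 3.06 and 2.73 in shCtrl and 3.9997 and 3.52 in shPML, higher by 30.6% in replicate 1 and by 29.0% in replicate 2. Although BMF had the largest fold difference, it contributed only from 1.09% to 1.49% of the BH3-only sum in shCtrl and from 4.09% to 4.32% in shPML. In a wider sum chosen after these values were seen, with BCL2A1 on the pro-survival side and BAX, BOK, BBC3, PMAIP1 and HRK on the pro-death side, the ratio was 0.728 and 0.724 in shCtrl and 0.932 and 0.844 in shPML, higher by 27.97% and 16.7%. These sums are of RNA and weigh each gene by its abundance, and no test was made of them.

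Of the 11 other family genes, 9 passed the filter, and BCL2L10 and BCL2L14 had 1 and 6 counts at most in any library. Without the block 0 of the 9 were called by edgeR, with 1 higher and 2 lower at unadjusted p-values under 0.05, and DESeq2 called 0. With the block, BBC3 was called higher and BCL2L12 and BCL2L15 lower. BBC3, which encodes the p53-induced BH3-only protein PUMA, stood at 27.9 and 36.3 CPM in shCtrl replicates 1 and 2 and at 42.9 and 90.8 CPM in shPML replicates 1 and 2. The ratios were 0.62 and 1.32 on the log2 scale, with 0.97 in the blocked fit (adjusted p = 8.1e-09 in edgeR), and the higher one came from the replicate with leukocyte transcripts. The other p53-linked genes of the family were not called. BAX was at 199 and 194 CPM in shCtrl and at 172 and 181 CPM in shPML (log2 fold change -0.16, adjusted p = 0.25 in edgeR with the block), and PMAIP1, which encodes NOXA, had a log2 fold change of -0.0014 (adjusted p = 0.996 in edgeR with the block).
BCL2L12, whose exons share 25.3% of their bases with IRF3 on the other strand, was at 34.9 and 43.9 CPM in shCtrl and at 17.5 and 27.3 CPM in shPML, a log2 fold change of -0.84 (adjusted p = 1.8e-07 in edgeR with the block). IRF3 had 5208 and 3308 counts in shCtrl and 6087 and 2417 in shPML, more than BCL2L12 with 1887, 1582, 1254 and 750. BCL2L15 was barely expressed, with 41 and 38 counts in shCtrl and 9 in each shPML library, and had a log2 fold change of -2.13 (adjusted p = 0.0213 in edgeR with the block), with ratios of -2.59 and -1.69 in replicates 1 and 2. BOK, a pore former that acts apart from the pro-survival proteins, had a log2 fold change of -0.34 (adjusted p = 0.00595 in edgeR with the block). HRK, BCL2A1 and BCL2L13 had log2 fold changes of 0.48, 0.46 and 0.24 with the block, with adjusted p-values of 0.0781, 0.40 and 0.0847 in edgeR. BCL2A1, a pro-survival gene that blood cells express strongly, was at 2.44 CPM in shPML replicate 2, the library with leukocyte transcripts, and at 2.69 CPM in shPML replicate 1.

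The same fits were read for 4 further lists of genes that act before or after the BCL2 family. Together with the other family genes they held 49 tested genes, of which 2 were called without the block (both lower, against 0.333% of all genes lower) and 17 with it, 7 higher and 10 lower, against 8.57% and 10.5% of all genes. The lists are short, and each count below is to be read beside these shares, with 17.9% of all genes at an unadjusted p under 0.05 and 8.93% called by DESeq2 without the block. The median log2 fold change of the 49 genes was -0.01 in both fits.

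Of 15 partners and turnover factors of BCL2 family proteins, 1 was called lower without the block (0.333% of all genes were), and 1 higher and 4 lower with it (8.57% and 10.5%). DYNLL2, the dynein light chain that anchors BMF, was at 69.0 and 69.9 CPM in shCtrl and at 25.3 and 26.4 CPM in shPML. Its log2 fold change was -1.43 (adjusted p = 0.0484 in edgeR without the block and 4.9e-15 with it). The value without the block is the smallest adjusted p of any gene in that fit. DYNLL1, the related chain known to anchor BIM, had a log2 fold change of -0.08 with the block (adjusted p = 0.59 in edgeR). Among the genes of the YWHA adaptors, which hold phosphorylated BAD in the cytosol, YWHAZ was at 595 and 705 CPM in shCtrl and at 300.4 and 301 CPM in shPML, a log2 fold change of -1.11 with the block (adjusted p = 1.5e-14 in edgeR). YWHAH was called lower as well, at -0.69, with log2 ratios of -0.60 and -0.79 in replicates 1 and 2. SFN, at 2.03 CPM or less in every library, was called lower at -2.07, but its log2 ratio was -0.99 in the first experiment and -3.80 in the other, where shPML had 4 counts and leukocyte transcripts. YWHAQ had a log2 fold change of -0.29 (adjusted p = 0.0195 in edgeR with the block), short of the threshold, and YWHAB, YWHAE and YWHAG lay between -0.05 and -0.02. FBXW7, part of a ubiquitin ligase for MCL1, was the gene called higher, at 0.51 (0.55 in replicate 1), while HUWE1, USP9X, BTRC, VDAC2 and MARCH5 were not called.

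Of the 8 genes of the death receptor arm, which reaches the mitochondrion through BID, 0 were called without the block (unadjusted p-values under 0.05 were found in 3 higher and 1 lower, and DESeq2 called 3) and 3 were called higher with it, against 8.57% of all genes. They encode the receptors FAS and those of TRAIL, TNFRSF10A and TNFRSF10B. TNFRSF10B rose in the blocked fit, from 190 and 174 CPM in shCtrl to 309 and 284 CPM in shPML, with a log2 ratio of 0.71 in both experiments (adjusted p = 3.1e-08 in edgeR). FAS and TNFRSF10A had log2 fold changes of 0.73 and 0.65, with 0.69 and 0.54 in replicate 1. FADD, TRADD, RIPK1 and TNFRSF1A had log2 fold changes between -0.02 and 0.25 and were not called, and CFLAR, which encodes the caspase 8 inhibitor FLIP, had -0.39 (adjusted p = 0.00161 in edgeR with the block) and did not reach the threshold on fold change.

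Of 9 inhibitor of apoptosis genes and their antagonists, 8 were tested, with 1 called lower without the block (0.333% of all genes were) and 2 higher and 2 lower with it (8.57% and 10.5%). BIRC5, which encodes survivin and is also a gene of mitosis, was at 157 and 171 CPM in shCtrl and at 58.6 and 55.3 CPM in shPML, a log2 fold change of -1.52 (adjusted p = 0.0484 in edgeR without the block and 5.8e-18 with it). Here too, the value without the block is the smallest adjusted p of any gene in that fit. BIRC2 and BIRC3, neighbouring genes that encode the related ubiquitin ligases cIAP1 and cIAP2, went in opposite directions in the blocked fit, at -0.78 and 0.59, with log2 ratios of -0.68 and 0.70 in replicate 1. HTRA2, a mitochondrial protease that counters these inhibitors, was called higher at 0.52 (0.55 in replicate 1). NAIP, with 18 counts or fewer in every library, had a log2 fold change of 2.80 (adjusted p = 0.0873 in edgeR with the block) and was not called. Of the 9 genes of the apoptosome and caspase list, CASP2 and CYCS were called lower with the block, at -0.76 and -0.51 (-0.84 and -0.43 in replicate 1), against 10.5% of all genes lower, and 0 were called without it (unadjusted p-values under 0.05 were found in 1 higher and 2 lower, and DESeq2 called 1). The scaffold APAF1 had a log2 fold change of 0.37 (adjusted p = 0.0131 in edgeR with the block) and did not reach the threshold on fold change.

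**Figure D4:**
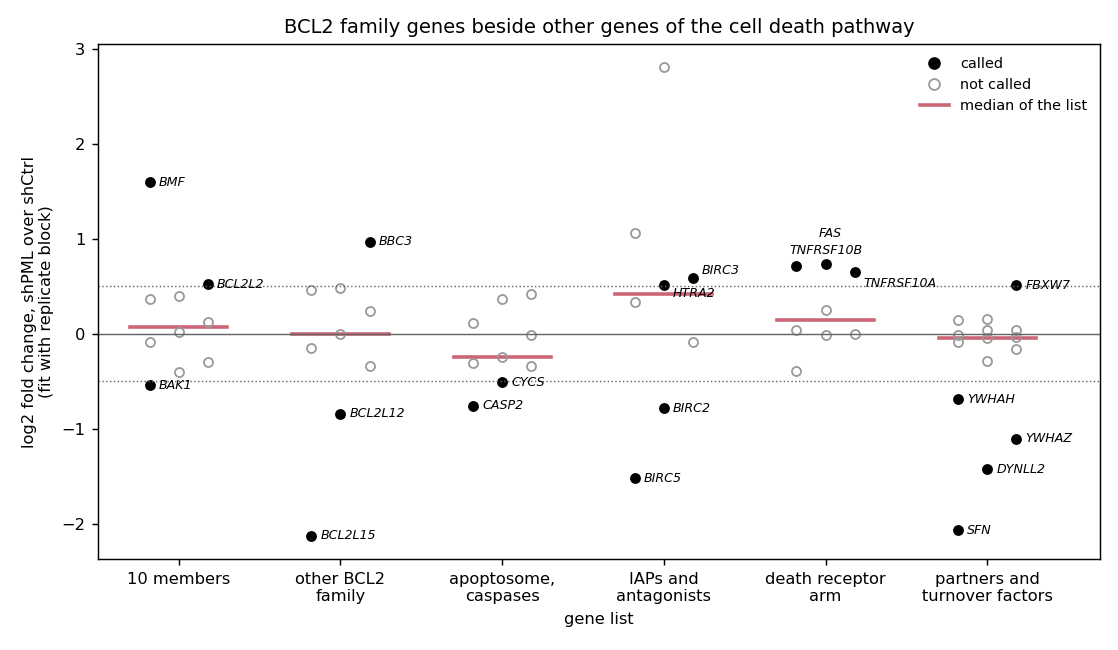
log2 fold change of shPML over shCtrl in the fit with the replicate block (vertical axis) for the 10 members and 5 lists of related genes (horizontal axis). Filled points are called genes, open points genes that were not called, and red bars the median of each list. Called genes lie on both sides of 0 in the members and in 3 of the 5 lists. Medians run from -0.25 for apoptosome and caspase genes to 0.42 for inhibitor of apoptosis genes and their antagonists. Within replicates 1 and 2 these medians were -0.22 and -0.19, and 0.41 and 0.43. In fits with no block and 1 library left out, they ran from -0.22 to -0.11 and from 0.03 to 0.46.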

How the data were processed

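The authors trimmed single-end reads of stranded mRNA libraries with Trimmomatic 0.39, mapped them to GRCh38 using STAR, and obtained counts on Gencode genes from featureCounts 1.6.4. The deposited values are raw counts per gene, not normalized, for 59050 genes, with the summed exon length of each gene. The release and the strand setting are not given in the sources used here. Columns were matched to samples by name, and the column of each condition without a number was taken as replicate 1, since the other carries the number 2.

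Counts were filtered with filterByExpr (16516 genes left), normalized by TMM, and compared in edgeR 4.0.16 (quasi-likelihood, R 4.3.3), without a block, with Benjamini-Hochberg adjustment over all genes tested. DESeq2 1.42.0 was an alternative. Standard errors are the log2 fold change divided by the root of F. Ratios within a replicate carry exact intervals at 95% for counting error only. The fits were tested on simulated data. Alternatives were the replicate block, DESeq2, RLE normalization, other filters and fold change thresholds, and each library left out.

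Replicate numbers were read as the 2 experiments of the methods. Deviations of the replicate 1 libraries from their group means correlated at 0.546 over all genes (genes are not independent replicates), so the blocked values are given beside the others.

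The members and lists were chosen with earlier results of these data known. Genes named are the 10 members, PML, the read-through neighbours of BCL2L2, the other family genes, and of each list up to 4 called genes with the largest blocked log2 fold change. Further list genes were named after their values were seen. MARCH5 is the older symbol of MARCHF5. Promoter sequences are RefSeq entries of GRCh38.p14. Values of some single genes of the lists are not reported here.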

Additional observations from a re-analysis of the deposited data

How the results depend on the processing

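Of the 100 member values tested under the alternatives, 85 kept their direction and their side of the threshold, 9 passed it and 6 changed sign. The 9 that passed the threshold were BCL2L2 and BAK1 with the replicate block in edgeR and DESeq2, and BMF with both of these, with DESeq2, with no filter on low counts and with at least 10 counts in every library. Of 10 values from replicate 1 alone, an alternative without a test chosen after seeing the data, 9 kept their direction. The 6 sign changes were in BAD and BIK. BAD was at 0.25 without shCtrl replicate 2 and 0.24 without shPML replicate 1, in a range of -0.48 to 0.25 over the libraries left out. BIK was at 0.021 and 0.033 with the replicate block in edgeR and DESeq2. It was at 0.58 without shCtrl replicate 2 and 0.11 without shPML replicate 1, in a range of -0.52 to 0.58. BIK also changed sign in replicate 1 alone, at 0.38. The fits with 1 library left out had no block. In the fit with both terms, replicate 2 was above replicate 1 by 0.66 for BAD and 0.76 (standard error 0.43) for BIK on the log2 scale. The cause of the sign changes was not tested. BMF ranged from 1.44 in replicate 1 alone to 1.73 without shPML replicate 1, and without shPML replicate 2, the library with leukocyte transcripts, it was 1.47 (adjusted p = 0.20 in edgeR, with 1 shPML library assumed to vary like the shCtrl group). Over its alternatives the adjusted p of BMF ran from 1.0e-09 to 0.42.

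The number of members called was 3 with the replicate block in edgeR and DESeq2, and 1 with DESeq2 alone, with no filter and with at least 10 counts in every library. It was 0 without any single library. The median log2 fold change of the members ran from -0.14 to 0.29 when 1 library was left out, in fits with no block, and was 0.22 in replicate 1 alone. Over all genes, 1415 were called higher and 1735 lower with the replicate block, 577 and 898 with DESeq2, 1109 and 1386 with both, 0 and 0 with RLE normalization (where 2967 had an unadjusted p under 0.05), 891 and 946 with no filter, and 53 and 144 with at least 10 counts in every library. Leaving out 1 library gave 0 to 187 higher and 0 to 61 lower. In the 5 lists, 17 genes were called with the replicate block, 10 with DESeq2, 15 with both, 0 with RLE normalization, 11 with no filter and 0 to 1 when 1 library was left out. The log2 difference of the summed pro-survival over pro-death level was 0.38 per kb and 0.32 without division by gene length. In fits with no block, the median of inhibitor of apoptosis genes and their antagonists fell from 0.42 to 0.027 without shPML replicate 1. This median was 0.21 without shPML replicate 2. That of the apoptosome list went from -0.25 to -0.11 without shCtrl replicate 1. That of the death receptor list ran from 0.0057 without shPML replicate 2 to 0.42 without shPML replicate 1. Within replicates 1 and 2 the medians were 0.41 and 0.43, -0.22 and -0.19, and 0.16 and 0.18, with the lists in the same order. BIK had 48 to 95 counts in each library, and its counting intervals within replicates held 0.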
